A study of Mus musculus with 9 samples.

Results

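Rescue and control intestinal epithelium of newborn mice were compared on 3 arrays each, which are 6 of the 9 arrays of the study. Control pups were Tfr1 fl/fl, that is, they carried floxed alleles of the gene for transferrin receptor 1 (symbol Tfrc), and the labels call them wildtype. Rescue pups were Tfr1 IEC-KO;ROSA26 Tfr1R654A/+, so they combined the deletion of Tfr1 in intestinal epithelial cells with 1 allele at the ROSA26 locus that encodes the receptor with the R654A change. The other 3 arrays hold Tfr1 IEC-KO pups without that allele, and their values are given only beside those of the rescue arrays. All pups were untreated and taken on postnatal day 0. The comparison asks which transcripts still differ from control when R654A is the only receptor the genotype leaves in these cells. Of 18161 genes read by a probe set with a single symbol, the 17529 on autosomes were compared. Left out were 628 genes on X or Y and 4 with no chromosome in the reference table.

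Transferrin receptor 1 binds iron-loaded transferrin at the cell surface and carries it inward by endocytosis, which is the main route of iron into dividing cells. R654A replaces an arginine in the transferrin-binding face of the mouse receptor, and the changed receptor binds transferrin poorly. At birth the gut epithelium consists mostly of enterocytes that take up milk, with goblet cells that secrete mucus and enteroendocrine cells that release hormones between them.

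Cells came from small intestine and proximal colon, were loosened in 2 mM EDTA for 30 min and passed a 70 micron mesh, with no sorting step in the labels. Enterocyte markers were bright in all 6 arrays: Vil1, the brush border protein villin, read 12.25 to 12.37 in control and 12.12 to 12.39 in rescue (log2), and Lct, lactase, read 13.36 to 13.50 and 13.32 to 13.41. Ptprc, the defining surface marker of leukocytes, read 4.98 to 6.01 in control and 4.84 to 5.75 in rescue, within the dimmest 40% of genes (up to 6.18 in control and 6.22 in rescue). Neither the Cre line nor the pups' sex is given in the labels, and they do not say whether an array holds 1 pup or a pool, so p-values measure the spread between arrays only. Across genes, which are not independent replicates, control arrays correlated with each other at r = 0.994 to 0.996 and rescue arrays at 0.986 to 0.990. Standard deviations of single genes had a median of 0.104 in control and 0.140 in rescue (log2, n = 3 each).

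The rescue arrays differed from control arrays in sex-linked transcripts. Xist, the RNA of the inactive X chromosome, read 12.31, 12.14 and 12.10 in control and 6.45, 6.83 and 6.74 in rescue. Eif2s3y, a gene of the Y chromosome, read 2.75, 2.88 and 2.69 in control and 9.36, 9.70 and 9.48 in rescue. The knockout arrays read 12.02 to 12.75 for Xist and 2.34 to 2.82 for Eif2s3y, on the side of the control arrays. Sex and genotype can therefore not be told apart in any of the differences between rescue and control, and leaving out X and Y does not remove autosomal differences between sexes.

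Transcript of the targeted gene set the rescue arrays apart on 5 of its 6 probe sets. The brightest Tfrc probe set read 10.21, 10.78 and 9.88 in control and 10.91, 10.22 and 11.11 in rescue. The groups thus overlapped (0.46 ± 0.29, log2 change ± SE, adjusted p = 0.66 over all 45101 probe sets). The next brightest read 6.06, 6.29 and 6.11 in control and 10.90, 10.91 and 10.74 in rescue, a rise of at least 26-fold (adjusted p = 4.0e-06 over all 45101 probe sets). A fold is called "at least" where the lower group lay in the dimmest 40% of its genes, where background flattens differences. The remaining 4 probe sets, 3 of them array controls, rose by 3.41 to 5.46 on the log2 scale (adjusted p at most 5.5e-05). Which stretch of the transcript each probe set reads was not analysed here, so these values check the presence of added receptor transcript and not the deletion.

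**Figure D1:**
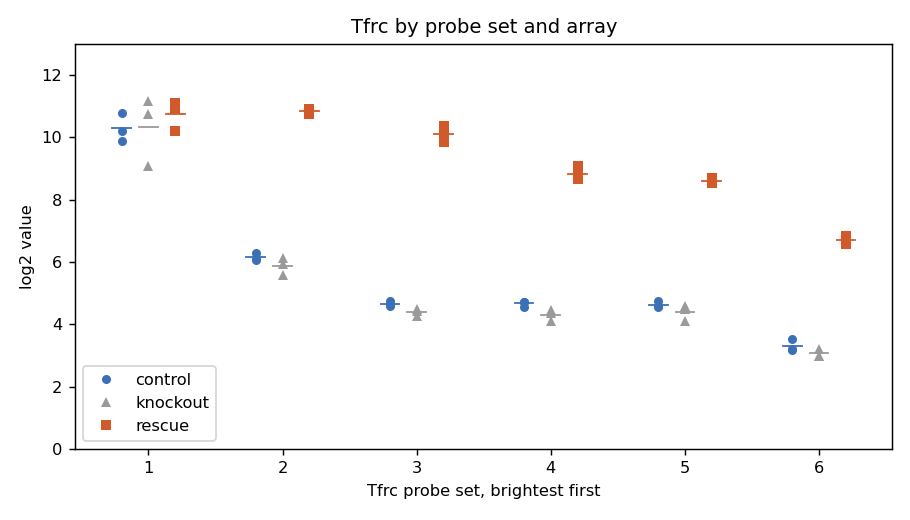
Log2 value of Tfrc on each of 6 probe sets, brightest first, in the 3 control (blue circles), 3 knockout (grey triangles) and 3 rescue arrays (orange squares); bars are group means. On probe set 1 the groups overlap, and on probe sets 2 to 6 all rescue arrays lie above all other arrays.

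Between rescue and control, 137 autosomal genes passed limma's test at an adjusted p of 0.05, which is 0.782% of those tested. Of these, 72 were higher in rescue (0.411%) and 65 lower (0.371%). The changes ranged from 1.37-fold to 8.13-fold upward and to 4.88-fold downward, with a median of 2.05-fold, and 74 reached 2-fold (43 higher, 31 lower). In all 137 the arrays of the groups did not overlap, as in 16.7% of all autosomal genes (6.7% with rescue higher and 9.95% with rescue lower). The median change of all autosomal genes was -0.01 on the log2 scale. At an unadjusted p under 0.05, 5.18% of autosomal genes were higher in rescue and 7.34% lower. Counts of called and unadjusted members in the gene lists below are to be read against these shares.

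The number of genes past the threshold depended on which arrays entered the fit. With the knockout arrays in the estimate of spread, 18 genes passed (0.103%; 7 higher, 11 lower), all among the 137. Leaving out control replicate 1, 2 or 3 left 5, 3 and 2 genes, and leaving out rescue replicate 1, 2 or 3 gave 60, 8 and 223. Tmed6 and Fmo1 were the 2 genes that passed in all 6 of these fits. Among 59 called genes chosen for naming, 6 (Tmed6, C1qtnf12, Pgam2, Piwil2, Nradd and Cyp2c65) stayed past the threshold under every alternative that kept all 6 arrays and could be fitted for them. The other genes described as risen or fallen passed in the fit to 6 arrays and missed the threshold under 1 or more of those alternatives. Averaging all probe sets of a gene, in place of its brightest, brought the changes of Ak4 to 0.53, Zfp37 to 1.48, Mtarc1 to -1.02, Gpd1 to -0.71 and Sdccag8 to -0.59, all still past the threshold, and that of Cpe to 0.88 (adjusted p = 0.066).

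**Figure D2:**
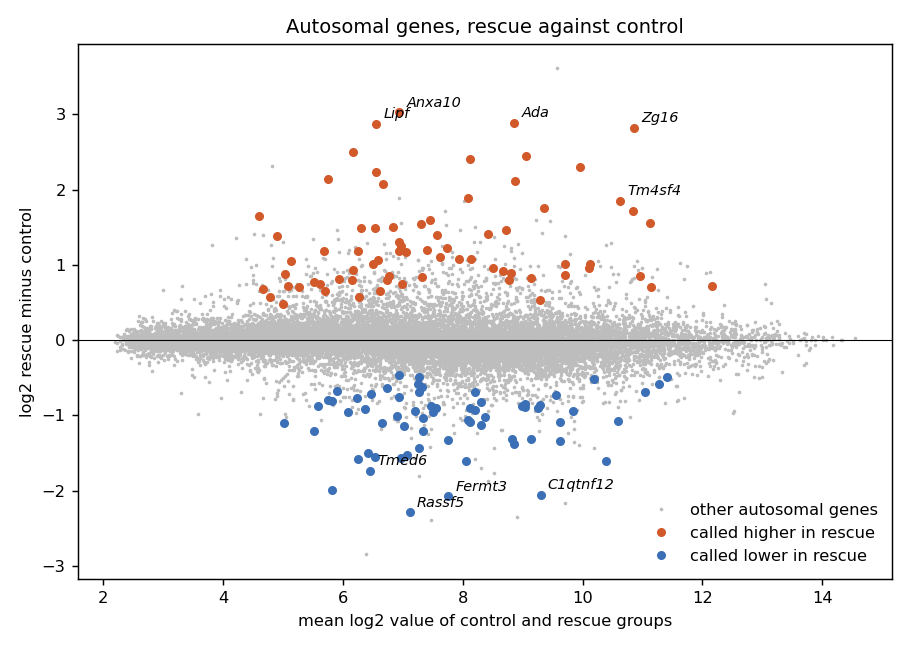
Change between rescue and control (vertical axis, log2) against the mean level of both groups (horizontal axis, log2) for 17529 autosomal genes; orange points are the 72 genes called higher and blue points the 65 called lower in rescue. Called genes occur at dim and bright levels, and most uncalled genes lie close to 0.

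The largest rise among called genes was that of Anxa10, an annexin of gastric epithelium that is also listed among genes of fetal and regenerating gut. Anxa10 read 5.07, 5.96 and 5.25 in control and 7.60, 8.39 and 9.36 in rescue, a rise of at least 8.13-fold (3.02 ± 0.44, adjusted p = 0.042). The fetal and regenerative list, which also holds targets of the growth regulator YAP, had 5 of 25 measured members called higher and 0 called lower, and its median change was 0.31. Gja1, the gap junction protein connexin 43, read 6.48, 7.42 and 7.53 in control and 9.09, 8.97 and 9.01 in rescue (1.88 ± 0.26, adjusted p = 0.037). Anxa1, an annexin known from inflammation and repair, read 8.23, 8.36 and 8.50 against 9.40, 9.18 and 9.19 (0.89 ± 0.11, adjusted p = 0.026). For each of these genes every rescue array lay above every control array. S100a6, a calcium-binding protein, rose by 0.96 ± 0.13 (adjusted p = 0.032) and Anxa5, which binds phosphatidylserine on membranes, by 0.54 ± 0.08 (adjusted p = 0.037). Canonical YAP targets of the same list did not follow at this threshold: the changes of Ccn1, Ccn2 and Ankrd1 were 0.06, -0.19 and 0.03. Averaging all probe sets of a gene took the adjusted p of Anxa10, Gja1 and Anxa1 above the threshold, as did leaving out probe sets with possible cross-matches for Anxa10 and Gja1. The change of Anxa10 was 2.21 and 1.39 in these settings.

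**Figure D3:**
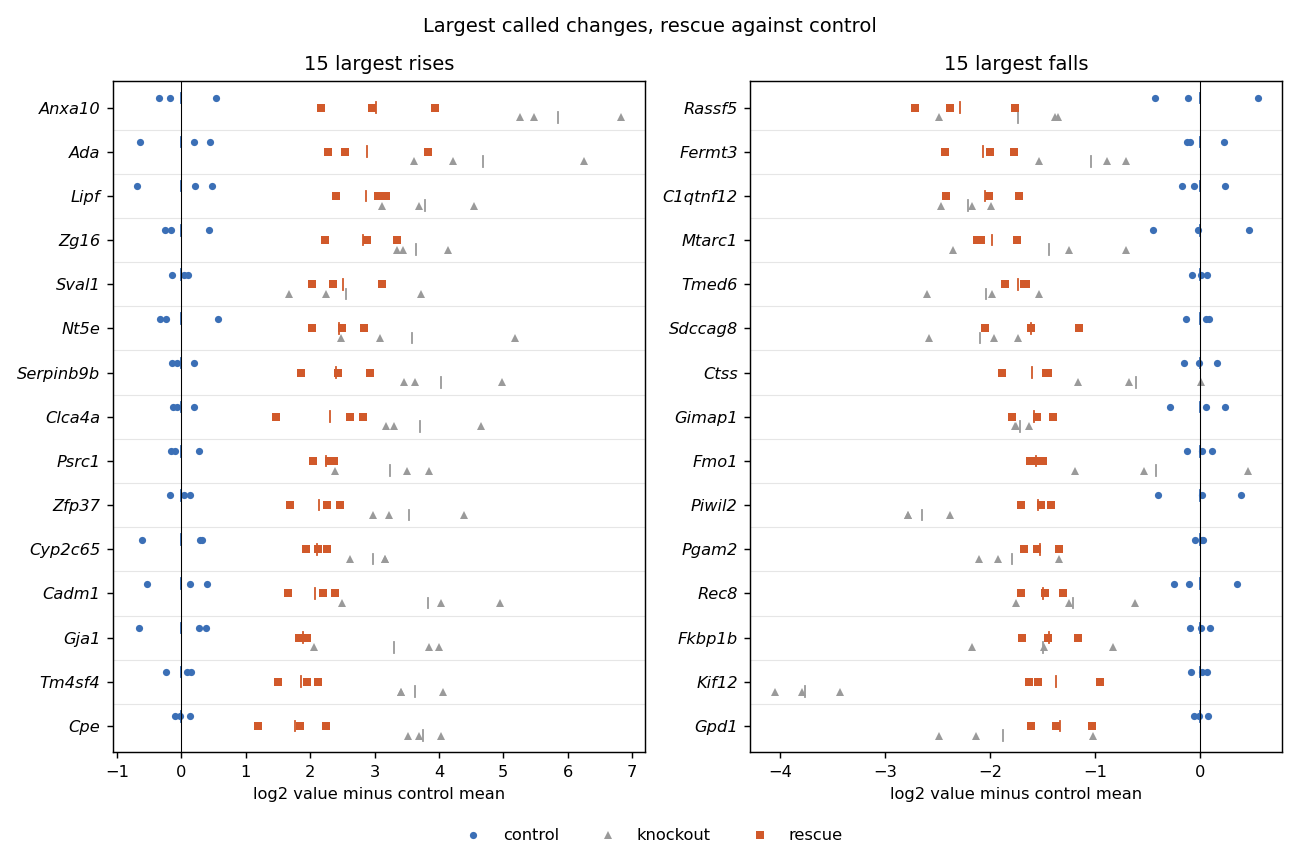
Log2 value minus the control mean for the 15 largest rises (left) and 15 largest falls (right) among called genes, in 3 control, 3 rescue and 3 knockout arrays; ticks are group means. That rescue and control arrays do not overlap was a condition for the choice of these genes. For Anxa10 the knockout arrays lie above the rescue arrays.

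Promoter sequence is shown for Anxa10, Gja1 and Anxa1, 3 of the 5 called members of the fetal and regenerative list. It is also shown for Cyp2c65, a cytochrome P450 described further on. The list members were picked for a match to the AP-1 motif or TATAAA, and Cyp2c65 for matches to the HNF4 motif and TATAAA. All were picked after their values were seen. That these windows hold matches was therefore fixed by the choice and is not a result. The 250 bases before the transcript start are shown 5′ to 3′ on the gene's strand, from RefSeq on GRCm38.p6. Capitals mark matches to TGANTCA, the motif of the factor AP-1, to TATAAA, the core promoter element named after it, and to CAAAGTCCA, a motif of the factor HNF4, each searched on both strands.
Anxa10, chr8:62123194-62123443, minus strand: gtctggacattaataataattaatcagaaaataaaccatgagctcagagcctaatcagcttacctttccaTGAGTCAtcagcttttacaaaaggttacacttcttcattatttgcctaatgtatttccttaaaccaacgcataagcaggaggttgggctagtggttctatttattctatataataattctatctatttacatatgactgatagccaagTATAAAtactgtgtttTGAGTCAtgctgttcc
Gja1, chr10:56377050-56377299, plus strand: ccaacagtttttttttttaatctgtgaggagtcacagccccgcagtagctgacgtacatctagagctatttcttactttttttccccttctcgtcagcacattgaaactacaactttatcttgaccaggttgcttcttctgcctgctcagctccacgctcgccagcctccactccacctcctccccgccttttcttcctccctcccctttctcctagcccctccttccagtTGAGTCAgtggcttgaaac
Anxa1, chr19:20390672-20390921, minus strand: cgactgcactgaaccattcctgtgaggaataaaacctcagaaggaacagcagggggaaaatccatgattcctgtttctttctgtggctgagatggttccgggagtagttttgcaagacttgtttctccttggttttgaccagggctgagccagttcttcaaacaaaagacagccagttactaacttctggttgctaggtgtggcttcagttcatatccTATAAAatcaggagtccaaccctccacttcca
Cyp2c65, chr19:39060756-39061005, plus strand: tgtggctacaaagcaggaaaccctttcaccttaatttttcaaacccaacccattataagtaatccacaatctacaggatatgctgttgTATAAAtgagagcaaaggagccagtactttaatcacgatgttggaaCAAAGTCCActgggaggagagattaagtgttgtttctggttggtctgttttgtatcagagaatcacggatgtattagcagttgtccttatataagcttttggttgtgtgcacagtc

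Anxa10 held the AP-1 letters 180 and 16 bases before its start and TATAAA 32 bases before it. In Gja1 the AP-1 letters began 19 bases before the start, and in Anxa1 TATAAA began 32 bases before it. The HNF4 letters of Cyp2c65 began 116 bases before the start. A window was found for 56 of the 72 higher and 48 of the 65 lower genes, and for 13925 autosomal genes in all. The 7 motifs searched were chosen with the results known. AP-1 letters were present in 8.93% of the windows of higher genes, 6.25% of lower genes and 6.66% of all windows. The shares for TATAAA were 16.1%, 10.4% and 10.4%, and those for CAAAGTCCA were 1.79%, 4.17% and 0.52%, the last resting on 1 higher and 2 lower genes. CDX (TTTATGG) gave 1.79%, 2.08% and 2.33%, and TEAD (GGAATG), the partner of YAP on DNA, gave 12.5%, 16.7% and 13.4%. KLF (GGGTGTGG) gave 5.36%, 2.08% and 4.22%, and the CCAAT box gave 46.4%, 41.7% and 39.1%. A match describes the letters of a window and does not show a site in use.

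Goblet cell genes had a median change of 0.51, and their medians in the rescue arrays were 0.29, 0.78 and 0.55. Of 27 measured members 4 were called higher and 0 lower. At an unadjusted p under 0.05, 14 were higher and 1 lower, against 5.18% and 7.34% of all autosomal genes. The lower one was St6galnac1, a sialyltransferase of mucins (-1.86 ± 0.69, adjusted p = 0.33). Zg16, a lectin secreted with mucus, read 9.87, 9.28 and 9.19 in control and 11.68, 12.32 and 12.79 in rescue (7.05-fold, 2.82 ± 0.30, adjusted p = 0.022). Clca1, a secreted protease that processes mucus, read 10.60, 9.96 and 10.50 against 11.70, 11.75 and 12.28 (1.56 ± 0.22, adjusted p = 0.037). Spink4, a small goblet cell peptide, rose by 1.71 ± 0.24 (adjusted p = 0.037), and Sytl2, which takes part in the traffic of secretory granules, by 0.85 ± 0.13 (adjusted p = 0.048). The arrays of the groups did not overlap for any of these 4 genes. Muc2, the main mucin of the gut, read 12.24, 10.91 and 11.68 in control and 12.36, 12.39 and 12.75 in rescue (0.89 ± 0.32, adjusted p = 0.31). The transcription factor Spdef differed by 0.58 ± 0.17 (adjusted p = 0.23) and the trefoil peptide Tff3 by 0.74 ± 0.20 (adjusted p = 0.20), and neither passed. In RNA from bulk cells, fewer cells of a type and less RNA per cell cannot be told apart, and the same holds for more. The summed linear value of the list ran from 42608 to 49997 in control and from 61309 to 84293 in rescue.

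Enteroendocrine genes had 3 of 32 members called higher, 0 lower, and a median change of 0.29. At an unadjusted p under 0.05, 15 were higher and 1 lower, against 5.18% and 7.34% of all autosomal genes. Cpe, which trims prohormones, read 8.44, 8.60 and 8.37 in control and 10.71, 10.31 and 9.66 in rescue (1.76 ± 0.25, adjusted p = 0.037). Gip, the hormone of K cells, read 10.87, 10.69 and 10.81 against 11.43, 11.43 and 11.61 (0.70 ± 0.09, adjusted p = 0.032). Scg5, a granin-like chaperone of prohormone convertases, rose by 0.57 ± 0.07 from a dim level (adjusted p = 0.029). Chga, the granule protein that most enteroendocrine cells share, differed the other way, by -0.39 ± 0.18 (adjusted p = 0.43).

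Enzymes of adenosine metabolism were among the largest rises. Ada, adenosine deaminase, read 7.86, 7.61 and 6.77 in control and 9.69, 9.96 and 11.25 in rescue (7.39-fold, 2.89 ± 0.45, adjusted p = 0.048). Nt5e, the surface enzyme that makes adenosine from AMP, read 8.41, 7.59 and 7.50 against 10.66, 9.87 and 10.32 (5.47-fold, 2.45 ± 0.29, adjusted p = 0.026), and the mean of its probe sets rose by 1.11 (adjusted p = 0.028). These were the 2 called members of the 19 measured in the adenosine and purine list, whose median change was 0.05. Not on the list was Ak4, a mitochondrial adenylate kinase, which rose from a dim level (1.48 ± 0.13, adjusted p = 0.016). Lipf, gastric lipase, read 5.60, 4.44 and 5.33 in control and 8.30, 7.52 and 8.17 in rescue, a rise of at least 7.33-fold (adjusted p = 0.026). Lipf and Anxa10 were the 2 called genes of 20 measured stomach genes, whose median change was 0.00. The defining stomach gene Atp4a, a subunit of the acid pump, read 5.27 to 5.36 in control and 5.30 to 5.50 in rescue, and overlapped.

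Of genes that handle foreign compounds, 3 of 28 were called higher and 0 lower, with a median of 0.02. At an unadjusted p under 0.05, 6 were higher and 6 lower, against 5.18% and 7.34% of all autosomal genes. Enzymes of similar families that are not on this list were called in both directions. Cyp4v3 was higher by at least 2.79-fold. Cyp2j13 was lower by at least 2.15-fold, Cyp2u1 by 1.69-fold and the monooxygenase Fmo1, described further on, by at least 2.96-fold. Gstt2 (1.81-fold), Ugt2a3 (2.00-fold) and As3mt (2.12-fold), also not on the list, were called lower as well. Cyp2c65 read 7.21, 8.11 and 8.14 in control and 9.75, 9.94 and 10.09 in rescue (4.31-fold, 2.11 ± 0.25, adjusted p = 0.026; 0.039 in the fit to 9 arrays). Cyp2c55 and Cyp4f14, further cytochromes P450, rose from dim levels by 0.80 ± 0.13 (adjusted p = 0.049) and 0.66 ± 0.10 (adjusted p = 0.047). Cyp2c genes have close copies in the mouse genome, as have Clca4a, Sval1 and Serpinb9b, and probes may not tell the copies apart. Clca4a, a relative of Clca1, rose by 2.30 ± 0.34 (adjusted p = 0.042) and the protease inhibitor Serpinb9b by 2.41 ± 0.25 (adjusted p = 0.022). Sval1 rose from a dim level, by 2.50 ± 0.26 (adjusted p = 0.022).

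Hexokinases, which trap glucose in the cell, rose within the list of glycolysis and hypoxia targets (3 of 27 called higher, 0 lower, median 0.14). Pgam2, a phosphoglycerate mutase of glycolysis that is not on this list, was called lower (-1.53 ± 0.10, adjusted p = 0.0046). Hk1 read 6.80, 6.88 and 7.03 in control and 7.63, 7.79 and 7.81 in rescue (0.84 ± 0.10, adjusted p = 0.026). Its other probe set, at a dim level, rose by 0.21. Hk2 read 6.67, 6.89 and 6.83 against 8.35, 7.79 and 7.84 (1.20 ± 0.16, adjusted p = 0.032). The third was P4ha1, a subunit of collagen prolyl hydroxylase, which rose from a dim level (0.58 ± 0.08, adjusted p = 0.037). Widely used hypoxia targets differed less: the changes of Vegfa, Pdk1, Car9 and Ldha were 0.07, 0.14, 0.10 and -0.03, and none passed. Gluconeogenesis and fructose genes had 0 of 12 members called. Their median change was -0.56 with the rescue arrays at -0.69, -0.30 and -0.41, and 6 were lower at an unadjusted p under 0.05 against 7.34% of all autosomal genes. Fbp1, fructose bisphosphatase, read 12.95, 12.94 and 13.08 in control and 11.78, 11.76 and 12.52 in rescue (-0.97 ± 0.21, adjusted p = 0.12), and G6pc, glucose-6-phosphatase, differed by -1.01 ± 0.32 (adjusted p = 0.26).

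Genes that respond to growth factor signals had 2 of 35 members called higher (0.411% of all autosomal genes were), 0 lower, and a median of 0.37. At an unadjusted p under 0.05, 17 were higher and 0 lower, against 5.18% and 7.34% of all autosomal genes. Phlda1, an early response gene, read 7.59, 7.64 and 7.93 in control and 8.94, 9.41 and 9.04 in rescue (1.41 ± 0.15, adjusted p = 0.022; 0.028 in the fit to 9 arrays). Dusp6, the phosphatase that switches off ERK, read 9.13, 9.16 and 9.30 against 10.11, 10.40 and 10.09 (2.01-fold, adjusted p = 0.023). Btc, the EGF receptor ligand betacellulin, rose by 1.07 ± 0.14 (adjusted p = 0.032) and was the 1 called of 14 genes of the EGF family. The immediate early factors Egr1 and Fos varied widely among rescue arrays, at 8.46 to 10.22 and 9.49 to 11.04, and overlapped with control at 7.67 to 8.51 and 8.90 to 9.94. Among 26 p53 targets and apoptosis genes, Phlda3 rose (1.17 ± 0.16, adjusted p = 0.033), and 10 were higher and 0 lower at an unadjusted p under 0.05. Among 28 genes of the integrated stress response, Vldlr, a lipoprotein receptor, rose (1.40 ± 0.20, adjusted p = 0.037). Its change was 0.43, without a call, when probe sets with possible cross-matches were left out (adjusted p = 0.30). The mean of its probe sets was not called either. Of the 28 genes, 12 were higher and 1 lower at an unadjusted p under 0.05. The cyclin-dependent kinase inhibitor Cdkn1a, a p53 target, differed by 1.05 ± 0.22 (adjusted p = 0.11).

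Further large rises belonged to none of these lists. Psrc1, a spindle protein, had the smallest p among the rises and read 5.26, 5.70 and 5.33 in control and 7.80, 7.48 and 7.72 in rescue, at least 4.72-fold (adjusted p = 0.0046), while the mean of its probe sets rose by 0.83 on the log2 scale (adjusted p = 0.013). Tm4sf4, a membrane protein of the tetraspan type, read 9.46, 9.86 and 9.80 against 11.65, 11.82 and 11.20 (3.61-fold, adjusted p = 0.020). A rise of at least 4.40-fold was found for Zfp37, a zinc finger protein (adjusted p = 0.017), and for Cadm1, a cell adhesion molecule, at least 4.23-fold (adjusted p = 0.032). Rab27b, a GTPase of secretory granules, rose by 0.96 ± 0.08 (adjusted p = 0.016).

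Among the genes that fell, Tmed6, a cargo receptor of the early secretory pathway, had the smallest p. Tmed6 read 7.25, 7.34 and 7.39 in control and 5.47, 5.65 and 5.67 in rescue, a fall of at least 3.32-fold (-1.73 ± 0.09, adjusted p = 0.0018). Fmo1, a flavin monooxygenase, read 7.77, 7.63 and 7.87 against 6.18, 6.14 and 6.26 (at least 2.96-fold, adjusted p = 0.0031). Pgam2, a phosphoglycerate mutase known from muscle, read 7.79, 7.85 and 7.87 against 6.15, 6.29 and 6.49 (-1.53 ± 0.10, adjusted p = 0.0046). In each of these genes the gap between the groups was several times the range within either group. C1qtnf12, a secreted protein of the C1q and TNF family, read 10.27, 10.15 and 10.56 in control and 8.60, 7.91 and 8.31 in rescue (4.15-fold, -2.05 ± 0.19, adjusted p = 0.017; -1.38 without probe sets with possible cross-matches). The neurotrophin receptor homologue Nradd fell by 1.32 ± 0.09 (adjusted p = 0.0046), and Piwil2, an Argonaute family protein of the germline, by 1.55 ± 0.20 to a dim level (adjusted p = 0.032).

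Metabolic and signalling genes were also among the falls. Gpd1, which makes glycerol 3-phosphate, read 10.28, 10.24 and 10.36 in control and 8.68, 8.92 and 9.26 in rescue (-1.34 ± 0.15, adjusted p = 0.024). Mtarc1, a reductase of the outer mitochondrial membrane, read 6.37, 6.80 and 7.28 against 5.07, 4.72 and 4.69, a fall of at least 3.96-fold (adjusted p = 0.026). Kif12, a kinesin, read 9.60, 9.45 and 9.55 in control and 7.90, 7.99 and 8.58 in rescue (-1.38 ± 0.18, adjusted p = 0.032). All rescue arrays lay below all control arrays for these genes. Vdr, the vitamin D receptor, was the 1 called gene of 26 gut transcription factors and fell by 1.03 ± 0.12 (adjusted p = 0.026; 0.044 in the fit to 9 arrays). Icam1, an adhesion molecule and target of NF-kB, fell by 1.03 ± 0.14 (adjusted p = 0.032), and the activin receptor Acvr1c by 0.46 ± 0.07 (adjusted p = 0.048). For these 3 genes, too, the groups did not overlap, as in every called gene. Rassf5, a Ras-binding protein, had the largest fall among called genes, at 8.14, 8.81 and 7.82 against 5.88, 5.55 and 6.49, at least 4.88-fold (adjusted p = 0.034). Sdccag8, a centrosome protein, fell by 1.61 ± 0.21 (adjusted p = 0.032) and Fkbp1b, which binds calcium release channels, by 1.44 ± 0.14 (adjusted p = 0.020). Rec8, a meiotic cohesin, fell by at least 2.82-fold (adjusted p = 0.026).

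Several falls concern genes best known from leukocytes. Fermt3, the integrin activator kindlin-3, read 8.70, 8.67 and 9.02 in control and 6.37, 6.79 and 7.02 in rescue (-2.07 ± 0.18, adjusted p = 0.016). The 3 other Fermt3 probe sets had differences of -0.58, -1.55 and 0.03, the last from the one without possible cross-matches, at a dim level in both groups. The mean of all gave -1.04 (adjusted p = 0.017). Ctss, cathepsin S, read 11.18, 11.04 and 11.35 against 9.74, 9.30 and 9.72 (-1.60 ± 0.15, adjusted p = 0.016), and Gimap1, a GTPase of lymphocytes, fell by at least 2.99-fold (adjusted p = 0.022). Of 24 leukocyte markers Fermt3 was the 1 called, and the median change was 0.02. At an unadjusted p under 0.05, 1 was higher and 3 were lower, against 5.18% and 7.34% of all autosomal genes. The summed linear value ran from 10944 to 13589 in control and from 7123 to 9984 in rescue. This sum is set mostly by the brightest members, which are not among those named here. Besides Ptprc, the T cell gene Cd3e (6.66 to 6.76 in control, 6.71 to 6.95 in rescue) and the macrophage gene Adgre1 (6.48 to 6.83 and 6.53 to 6.83) overlapped between the groups. The part of leukocyte RNA in these falls was not tested.

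**Figure D4:**
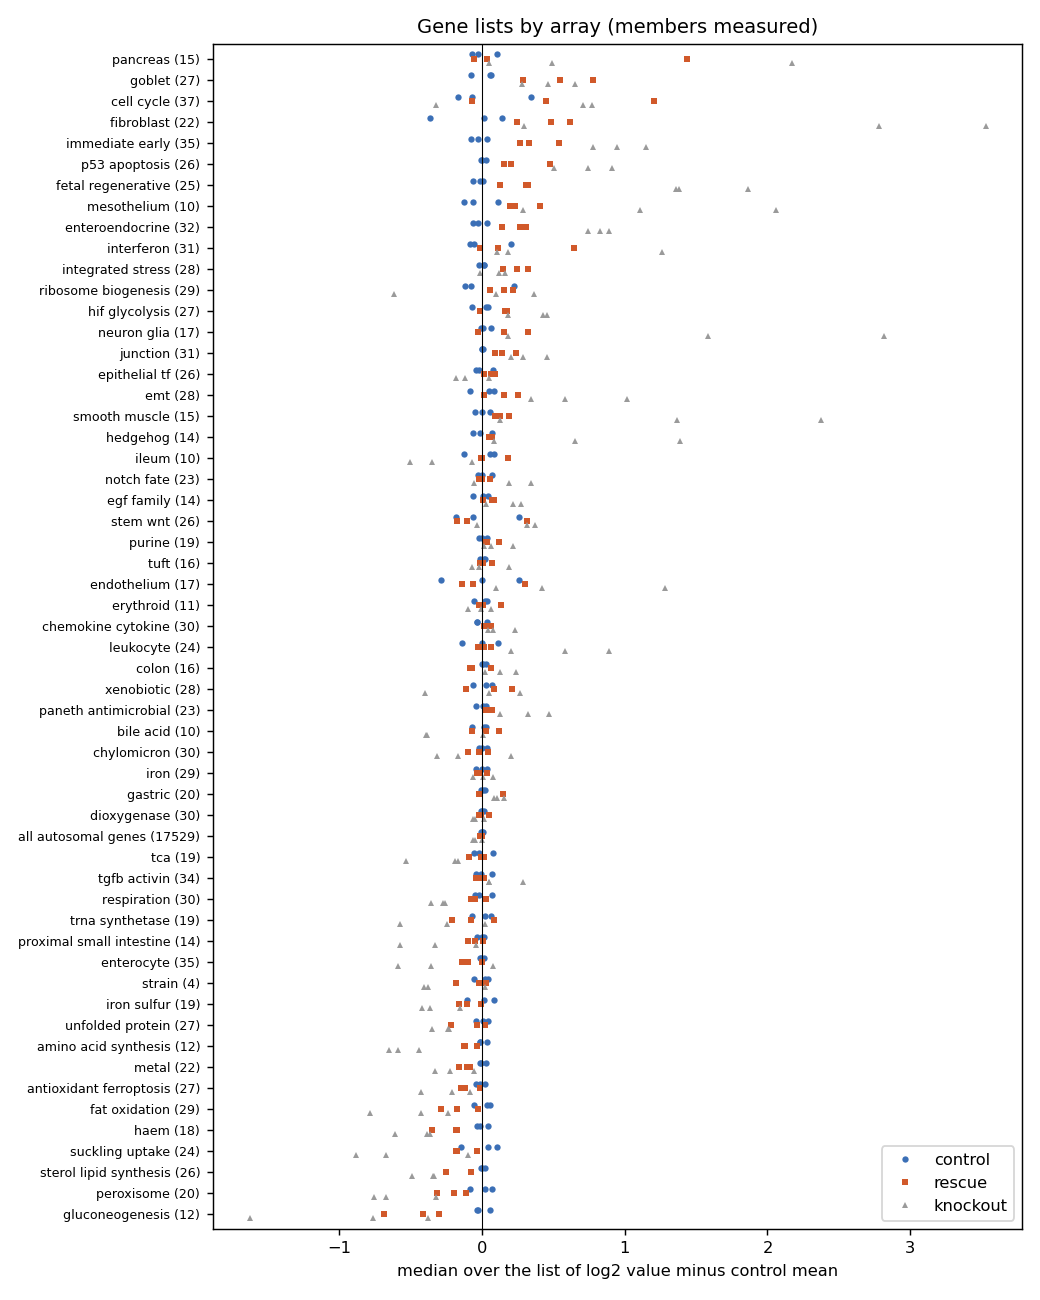
Median over each of 55 gene lists, and over all autosomal genes, of the log2 value minus the control mean, for 3 control, 3 rescue and 3 knockout arrays; numbers in brackets are measured members. Goblet, fetal and regenerative, and immediate early genes lie above 0 and gluconeogenesis genes below 0 in every rescue array, while respiration, iron and enterocyte lists stay near 0.

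Iron genes had 0 of 29 members called, and their median change was 0.00. At an unadjusted p under 0.05 there were 2 higher and 3 lower, against 5.18% and 7.34% of all autosomal genes. Since 0.782% of all autosomal genes were called, lists of such sizes often hold 0 called genes. Counts of 0 here and below therefore do not show that the genes are unchanged. Iron exporter Slc40a1 read 12.85 to 12.99 in control and 12.83 to 12.86 in rescue, and ferritin heavy chain Fth1 read 13.66 to 13.84 and 13.64 to 13.75, so both overlapped. The brush border iron importer Slc11a2 read 10.12, 9.70 and 9.99 in control and 8.78, 9.48 and 9.90 in rescue (-0.55 ± 0.27, adjusted p = 0.49). Hfe, a partner of the receptor in iron sensing, read 7.75, 7.64 and 7.99 against 6.33, 7.32 and 7.02 (-0.90 ± 0.25, adjusted p = 0.21). Haem genes also had 0 of 18 called, with a median of -0.21. At an unadjusted p under 0.05, 7 of the 18 were lower, a larger share than the 7.34% of all autosomal genes, and 1 was higher. Iron-sulfur cluster assembly (19 genes, median -0.08, 1 lower unadjusted) and the respiratory chain (30 genes, median -0.04, 0 in either direction unadjusted) likewise had 0 called by limma. A gene that misses the threshold with 3 arrays a group may still differ: the median standard error of 0.110 leaves small changes undetected.

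Enterocyte markers had 0 of 35 called and a median change of -0.07, chylomicron genes 0 of 30 with a median of 0.00, and stem cell and Wnt genes 0 of 26 with a median of 0.06. At an unadjusted p under 0.05 there were 1 higher and 4 lower enterocyte genes, 0 higher and 2 lower chylomicron genes, and 3 higher and 2 lower stem cell genes. The shares of all autosomal genes were 5.18% higher and 7.34% lower. The stem cell marker Lgr5 read 6.33, 7.09 and 6.49 in control and 7.17, 6.34 and 7.73 in rescue (0.44 ± 0.36, adjusted p = 0.69). Plagl2, a transcription factor linked to Wnt signalling in gut stem cells, read 10.76, 10.66 and 10.58 against 10.01, 10.34 and 10.46, without overlap but short of the threshold (-0.39 ± 0.13, adjusted p = 0.28). Cdh1, the epithelial cadherin, read 12.11 to 12.14 in control and 12.18 to 12.36 in rescue (0.15 ± 0.08, adjusted p = 0.52). Cell cycle genes had a median change of 0.51 with 0 of 37 called and 1 higher unadjusted, and their medians in the rescue arrays spread widely, at 0.45, -0.07 and 1.21.

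Some of the largest differences in means did not pass the test, and the rescue arrays varied among themselves for them. Fabp6, the ileal bile acid binding protein, read 8.75, 7.33 and 7.21 in control and 12.53, 9.79 and 11.79 in rescue (3.61 ± 0.73, adjusted p = 0.11). Aqp4, a water channel, read 7.74, 8.07 and 7.62 against 3.84, 4.86 and 6.21 (-2.85 ± 0.54, adjusted p = 0.089). Neither gene had overlapping arrays, which was so for 16.7% of all autosomal genes.

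Fibroblast markers moved with the rescue arrays below the threshold. Of 22 measured, 0 were called. At an unadjusted p under 0.05, 12 were higher and 0 lower, against 5.18% and 7.34% of all autosomal genes. The median of the list was 0.61, 0.49 and 0.25 in the rescue arrays against -0.36, 0.02 and 0.14 in control. Col1a1, a collagen of connective tissue, read 6.85, 7.44 and 7.34 in control and 8.41, 7.64 and 7.73 in rescue (0.72 ± 0.24, adjusted p = 0.29). Vim, the intermediate filament of mesenchymal cells, read 6.44, 7.51 and 7.84 against 8.66, 8.13 and 8.31 (1.10 ± 0.35, adjusted p = 0.26). The summed linear value of the fibroblast list was 3082 to 4348 in control and 4891 to 7778 in rescue. Of 15 smooth muscle markers Acta2 was called (1.07 ± 0.17, adjusted p = 0.049), 6 were higher at an unadjusted p under 0.05 and 0 lower, and the medians in the rescue arrays were 0.19, 0.13 and 0.09. The other Acta2 probe sets lay in the dim range, and the mean of all gave 0.41 (adjusted p = 0.18). The muscle marker Des overlapped, at 7.54 to 7.64 and 7.43 to 7.68. Mesothelial markers had 0 of 10 called, 5 higher and 0 lower at an unadjusted p under 0.05, and medians of 0.23, 0.19 and 0.41 in the rescue arrays. Neuronal and glial markers had 0 of 17 called, 2 higher and 0 lower unadjusted, and rescue medians of 0.32, 0.15 and -0.03. Endothelial and erythroid markers had 0 of 17 and 0 of 11 called, and 0 at an unadjusted p under 0.05. Exocrine pancreas markers had a median change of 0.59 with 1 of 15 called, which was Zg16, counted also among the goblet genes, and their medians in the rescue arrays were -0.05, 0.03 and 1.43, with rescue replicate 3 apart from the other two. The part of other cell types in the rises was not tested.

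Neighbours of the altered loci were read for local differences. Of the 10 array genes nearest to Gt(ROSA)26Sor, 0 were called by limma and 0 had an unadjusted p under 0.05, with changes from -0.15 to 0.06. Of the 10 nearest to Tfrc, Muc4, a membrane mucin, was called from a dim level (0.48 ± 0.07, adjusted p = 0.047). An unadjusted p under 0.05 was found for 4 of these 10, against 12.5% of all autosomal genes, and changes ran from -0.52 to 0.48. The other Muc4 probe sets, also dim, differed by -0.01 and -0.06.

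Set beside the knockout arrays, the genes described above differed in where rescue lay. The comparisons share the control or the rescue arrays, so their values are given side by side without a test of agreement. The difference of rescue from knockout was -2.83 for Anxa10 (adjusted p = 0.036), -2.08 for Anxa1 (adjusted p = 0.0057) and -1.66 for S100a6 (adjusted p = 0.0017), in the fit to 9 arrays, in which 2.32% of autosomal genes were called. For Kif12 rescue was above knockout by 2.38 ± 0.21 (adjusted p = 0.0023), with knockout arrays at 5.48, 6.10 and 5.74. Knockout arrays of C1qtnf12 read 8.34, 7.86 and 8.15, and the difference between rescue and knockout was 0.16 ± 0.20 (adjusted p = 0.73). Tmed6 read 5.34, 5.79 and 4.73 in knockout (0.31 ± 0.23, adjusted p = 0.52), Gimap1 5.42, 5.29 and 5.29 (0.13 ± 0.15, adjusted p = 0.71) and Clca1 11.61, 11.57 and 11.83 (0.24 ± 0.21, adjusted p = 0.59). For these 4 genes rescue and knockout arrays lay close together, though a missed threshold does not show that the groups are alike. Fmo1 read 7.23, 8.21 and 6.56 in knockout, so that the rescue arrays were the lowest of the 9.

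The genes most changed in knockout give a further view, as a description without a test since their choice uses the control arrays. Fbp1 read 9.36, 8.59 and 10.58 in knockout, between 11.76 and 12.52 in rescue, and between 12.94 and 13.08 in control. Plat, tissue plasminogen activator, read 8.78 to 10.22 in knockout, 5.48 to 5.98 in rescue and 4.97 to 5.31 in control. Lyz1, Paneth cell lysozyme, read 11.23 to 11.77, 8.43 to 9.60 and 6.72 to 7.46. St6galnac1, of the goblet list, was spread over 6.24 to 9.21 in the rescue arrays, with knockout at 5.93 to 6.66 and control at 9.19 to 9.56.

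**Figure D5:**
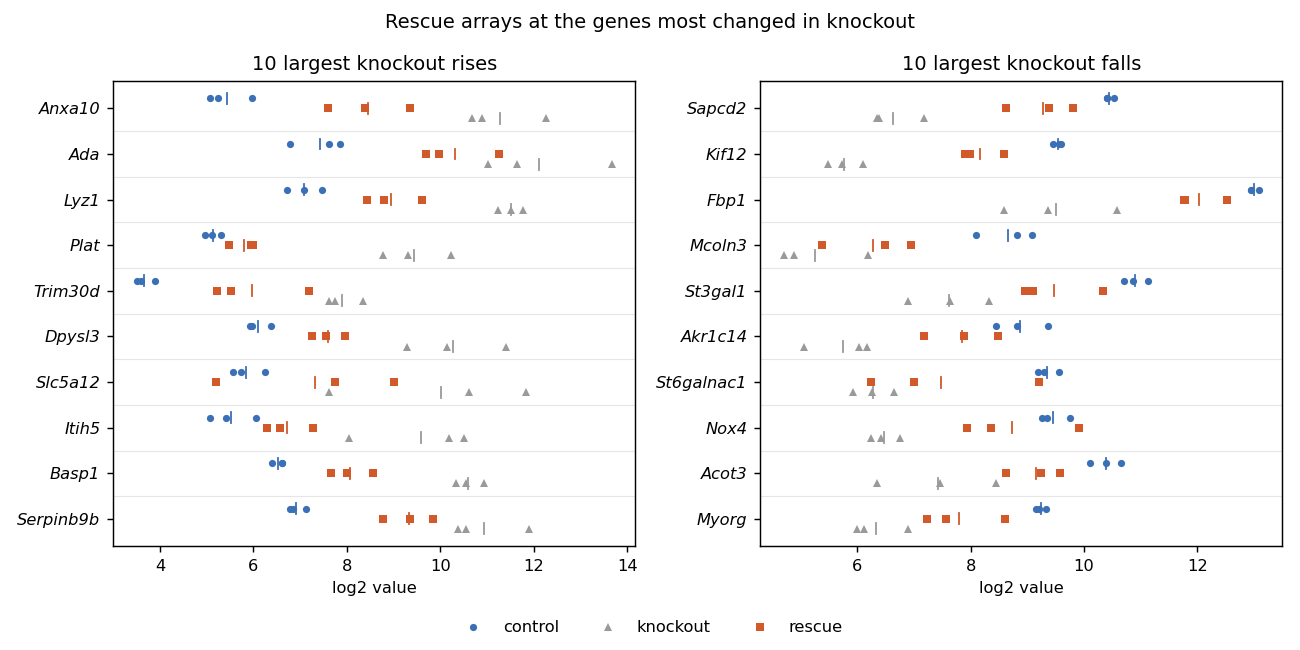
Log2 values of the 10 largest rises (left) and 10 largest falls (right) in knockout against control, in 3 control, 3 rescue and 3 knockout arrays; ticks are group means. For Anxa10 and Fbp1 the rescue arrays lie between the other groups, and for St6galnac1 they spread from the knockout to the control level.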

How the data were processed

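RNA of 9 mouse samples was measured on Affymetrix arrays, 3 each for control, knockout and rescue. The authors' deposited values are log2 expression values per probe set. Per the submitters' processing notes RMA and Partek 6.5 were used, with their roles and any filter not given in the sources used here. Each array holds 45101 probe sets, 0 values are missing, and array medians run from 5.93 to 6.00. Precision is limited by the number of arrays, since arrays carry no read depth.

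Probe sets with 1 symbol in the platform annotation (34945) were used, 932 had several and 9211 none. The brightest probe set over the 9 arrays stood for each of 18161 genes, of which 9020 had more than 1, and 18159 had an entry in RefSeq's list of genes (GRCm38.p6), which gave the chromosome. Groups came from sample titles. Rescue and control were compared on 6 arrays with limma 3.58.1 in R 4.3.3 (lmFit and eBayes, two-sided, data.table at version 1.17.8), adjusted over all genes by Benjamini and Hochberg at 0.05. Rescue and knockout were compared in a fit of 3 group means to 9 arrays. A single gene with 3 against 3 arrays cannot go below p = 0.1 in an exact permutation test, and limma borrows spread across genes. No pair of the 36 pairs of arrays was identical. Deviations of same-numbered arrays from their group means correlated at r = 0.01, -0.10 and -0.15 for numbers 1, 2 and 3. The labels do not say whether the numbers mark a pairing, and so few arrays cannot exclude one. The main fit did not pair arrays, and with the replicate number as a block 25 genes passed in place of 137. The script was tested on simulated data.

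Members and the 55 gene lists (1254 symbols, 1155 measured) were chosen with earlier results of these data known, as was the 6-array fit, because an earlier analysis gave knockout arrays a wider spread (median standard deviation 0.225). Genes were named by a rule: Cdh1, Vim, Lgr5, Plagl2 and Tfrc; 15 rises and 15 falls of the greatest size among called genes; up to 4 called members per list, or the member with the smallest p; the 10 largest rises and 10 largest falls in knockout; 10 neighbours of each altered locus; and the 5 smallest p-values in each direction. The 15 rises and 15 falls were taken from called genes whose rescue and control arrays did not overlap, which held for all 137. Those in knockout were taken likewise from called genes whose knockout and control arrays did not overlap. Other list members, and Cyp4v3, Cyp2j13, Cyp2u1, Gstt2, Ugt2a3 and As3mt, were named after their values were seen. Motifs were searched in 250 bases before the start, chosen after the data were seen. The alternatives were another fit, another choice or average of probe sets, a filter on dim genes, other scalings and moderation, array weights, the replicate number as a block, and single arrays left out.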

Additional observations from a re-analysis of the deposited data

Results flagged for a closer look

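Outside the autosomal comparison, 2 Y-linked genes were above the level of the control arrays in every rescue array: Eif2s3y was higher by 6.74 and Uty by 1.80 (log2). For Uty the control arrays lay at 4.35 to 4.80, the knockout arrays at 4.26 to 4.91 and the rescue arrays at 6.20 to 6.64. Kdm5d, a further Y-linked gene, read 4.16 to 4.36 in control and 4.36 to 4.67 in rescue and was not called (adjusted p = 0.56). Of 628 genes on X or Y, 11 were called by limma. Among 10092 probe sets with no symbol or several, which the report does not use, 16 were called higher in rescue and 10 lower in a fit over all probe sets (0.258%, against 0.479% of all 45101). Their changes reached 6.70 and -1.96, and the genes they read are not analysed here.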

How the results depend on the processing

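Fitted to 9 arrays, 18 genes passed (7 higher, 11 lower), with the replicate number as a block 25 (12 higher, 13 lower), and with array weights 225 (128 lower). Centring arrays on their medians, which moved the median of all genes to -0.03, gave 187 genes with 107 lower, against 65. Leaving out 1 of the 6 arrays gave 2 to 223 genes (0 to 107 higher, 2 to 116 lower). Of the 137, 106 passed in 1 or more of these fits. The mean of all probe sets called 147 genes, 107 of them shared. Without probe sets with possible cross-matches 92 passed, 86 of them shared, and of 116 that could still be tested 110 kept their direction. Signs turned for 6 of the 137, Fermt3 (0.0332), Acta2 (-0.0811), Muc4 (-0.0132), Cryab (-0.03), Tpm2 (-0.03) and Lmna (-0.07), all read there by another probe set that, except for Lmna, lay in the dimmest 40% in both groups, and for Hbb-y (-0.0129, not called in either setting) with the mean of probe sets. The causes were not tested beyond the change in arrays or probe sets. Levels in the dimmest 40% of genes limit 47 of the calls to lower bounds, 29 rises dim in control (under 6.18) and 18 falls dim in rescue (under 6.22).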
